A study of Mus musculus with 8 samples.

Results

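Foxp3 and the 5 Ikaros family genes Ikzf1, Ikzf2, Ikzf3, Ikzf4 and Ikzf5 were read in splenic regulatory T cells (Tregs), as 6 of the 55487 genes in each deposited table, chosen by gene symbol alone. The cells came from C57BL/6 mice and, per the labels' protocol, were sorted for GFP, although the label of 1 library does not name GFP. The RNA was made into SMART-Seq v4 libraries, in which full-length cDNA is amplified from little RNA. The 8 libraries form 4 groups of 2. SRC-3KO Tregs, which by their label lack the nuclear receptor coactivator SRC-3 encoded by Ncoa3, were compared with control Tregs in mice without a tumor and in tumor-bearing mice. The series asks which transcripts set SRC-3-deficient Tregs apart from wild-type ones, in view of their anti-tumor effects.

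Both no-tumor SRC-3KO libraries carry the word Tam1 in their names, which no other library does. The sources used here do not say what it means, so genotype and whatever it stands for cannot be told apart without a tumor. Both are labelled GFP+. No-tumor control replicate 1 is named WT and its source label lacks GFP, so whether it was sorted like the others is not given, while no-tumor control replicate 2 is named FOxP3_Cre and labelled GFP+. Both tumor controls are named FOXP3cre_GFP and both tumor SRC-3KO libraries SRC_3KO_GFP. The sources used here describe neither the Foxp3-Cre allele nor the deleted part of Ncoa3, the tumor or the age of the mice. A name with Cre joined to Foxp3 usually means that the Foxp3 gene drives the recombinase. The effect of such an allele on Foxp3 transcripts was not tested. Separate animals are not named for the replicates, so p-values measure only the spread between these samples, which may be technical.

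Foxp3 is the forkhead transcription factor that defines Tregs: mice and people without it lack working Tregs and develop autoimmunity. The Ikaros family are zinc finger factors that bind DNA through an amino-terminal group of fingers and pair with each other through a carboxy-terminal group. Ikaros (Ikzf1) is needed for lymphocyte development, Helios (Ikzf2) and Eos (Ikzf4) are high in Tregs and act with Foxp3 to hold genes silent or to keep the Treg state stable, Aiolos (Ikzf3) acts in B cells and several T cell subsets, and Pegasus (Ikzf5) is the most distant member. In a bulk sample, fewer cells of a type and less RNA per cell cannot be told apart.

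The family members are related, so the transcripts were first compared for stretches that short reads could not assign. Some of the longest identical runs that lie in the coding part of both genes are shown. An exactly matching read could fit both relatives there only if it were no longer than the run. In the GENCODE vM21 transcripts these runs were as follows.
Ikzf1 and Ikzf3: gatccctttgagtgtaacatgtgtgg
Ikzf1 and Ikzf4: gactccacagatacagagagcaac
Ikzf2 and Ikzf3: atgatggaccaagccatcaa
The longest of these has 26 bases. The longest run in any pair, outside the coding part, was a repeat of 32 bases shared by Ikzf2 and Ikzf4. Of all stretches of 50 bases in the members' transcripts, 0 occurred in another member.

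Sharing with unrelated neighbours was larger for Foxp3 and Ikzf5. Foxp3 (ENSMUSG00000039521, mm10 chromosome X, 7573644 to 7595245, plus strand) shares 31.5% of its 4577 exon bases with other genes. Of these, 853 bases lie in exons of Flicr (ENSMUSG00000039545, chromosome X, 7573600 to 7581027), a long noncoding RNA on the same strand that is known to dampen Foxp3 expression. Another 590 bases lie opposite Ccdc22, and 266 of the bases shared with Flicr also lie opposite Ppp1r3f. Ikzf5 (ENSMUSG00000040167, chromosome 7, 131388652 to 131410521, minus strand) shares 84.5% of its 5721 exon bases with genes on the opposite strand, 4652 of them with Pstk. Ikzf1 (ENSMUSG00000018654, chromosome 11, 11685003 to 11772926, plus strand) and Ikzf3 (ENSMUSG00000018168, chromosome 11, 98464902 to 98546031, minus strand) share none. Ikzf2 (ENSMUSG00000025997, chromosome 1, 69531214 to 69687245, minus strand) shares 1.24% and Ikzf4 (ENSMUSG00000002578, chromosome 10, 128630843 to 128645991, minus strand) 0.617%. The sources used here do not give the strand setting of the counting and the kit does not mark strand, so values of Foxp3 and Ikzf5 are uncertain where exons overlap. Ccdc22 itself had 2 counts in SRC-3KO replicate 1 and 0 in the other no-tumor libraries, but 5.18 to 8.36 FPKM in the tumor libraries.

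The main RefSeq start of Foxp3 lies inside the region that Flicr spans, so the 250 bases before it are shown (GRCm38.p6, which is mm10, chrX:7579426-7579675, plus strand). The capitals mark a TATAAA, the TATA box.
Foxp3: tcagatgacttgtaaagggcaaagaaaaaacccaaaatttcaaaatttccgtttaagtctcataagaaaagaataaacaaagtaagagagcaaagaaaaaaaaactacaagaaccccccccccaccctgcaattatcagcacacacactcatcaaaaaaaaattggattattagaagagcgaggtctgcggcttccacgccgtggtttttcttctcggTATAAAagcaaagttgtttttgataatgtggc
The first base of the TATAAA lies 32 bases before the start. On this strand, 7.59% of the 32851 RefSeq promoter windows of this length hold TATAAA. On either strand the window held 0 matches to the Ikaros core TGGGAA, the RUNX core TGTGGT, the NFAT core GGAAAA or the forkhead core GTAAACA, which 21.6%, 14.05%, 20.4% and 3.17% of windows hold. RefSeq lists a second, downstream Foxp3 start, whose window (not shown) held 1 GGAAAA, on the reverse strand 141 bases before the start, and 0 matches to the other motifs, TATAAA included. RefSeq promoters were also matched for Ikzf1 and Ikzf5, with 0 matches to any of these motifs.

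The no-tumor libraries held 24159217 to 31075452 counts, given here as CPM (counts scaled to library size with TMM). The tumor libraries were deposited as FPKM (fragments scaled to transcript length and library size). Their depth is not given, but the steps between low FPKM put it at 1.06, 1.10 and 1.17 times that of control replicate 1 in control replicate 2 and SRC-3KO replicates 1 and 2. All 6 T cell markers and all 8 Treg markers of the marker lists were detected in every library. The Treg list summed, without a tumor, to 6583 and 6529 CPM for SRC-3KO and 3285 and 4614 CPM for control, and with one to 3164 and 2987 FPKM against 2590 and 1999 FPKM. Other cells left traces: B and plasma cell markers summed to 1724 and 2377 FPKM in the tumor controls and 274 and 253 FPKM in tumor SRC-3KO, and monocyte and neutrophil markers to 1466 and 3988 FPKM in tumor control replicate 2, against at most 10.7 and 4.72 FPKM in the other tumor libraries. Without a tumor, the WT library had CD8 T and NK cell markers at 1338 CPM against 123 to 555 CPM in the others, and B and plasma cell markers at 111 CPM against 506 to 1502 CPM. Of the 7 CD8 T and NK cell genes, 4 reached 1 CPM in the WT library. Cd8a stood at only 1.75, Klrb1c at 0.0397 and Ncr1 at 0 CPM there, so nearly all of that sum came from other genes of the list. Which cells these transcripts came from was not tested. No-tumor control replicate 2 had neutrophil markers at 307 CPM against at most 0.0795 CPM elsewhere. The part of these cells in the no-tumor differences of Foxp3 and Ikzf2, which move with the same controls, was not tested. Of the 8 B lineage genes tested with a tumor, 8 were lower in SRC-3KO without overlap and limma called 4. Over all genes, 24.9% were lower without overlap and 0.0933% were called lower. Of the 11 listed, 3 reached 1 FPKM in each SRC-3KO library, against 8 and 9 in the controls. Some of the 8 were thus tested only because the controls are high, so their direction was largely set by the filter. Ncoa3, the targeted gene, was read as 39.6 and 26.7 CPM in the no-tumor SRC-3KO libraries and 132 and 54.1 CPM in their controls. With a tumor it was read as 47.5 and 27.7 FPKM in SRC-3KO and 37.7 and 45.4 FPKM in the controls, so these groups overlapped and the label is not borne out by the summed level of this gene. The deleted part is not named, so its remaining exons may still be read. SRC-3KO below therefore means the libraries labelled SRC-3KO.

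Foxp3 did not differ by a margin its test could call in either state, and its no-tumor difference rested on the control library named WT. The no-tumor SRC-3KO libraries gave 21.1 and 10.2 CPM, and control replicates 1 and 2 gave 231 and 20.5 CPM. SRC-3KO replicate 1 and control replicate 2 were alike, and the WT library was high by itself, 11.2-fold above the other control. The underlying counts were 581 (95% Poisson interval 535 to 630), 290 (258 to 325), 5809 (5661 to 5960) and 538 (493 to 585), so counting error is small beside the spread between libraries. Intervals cover counting error only. The log2 fold change was -3.01 (SE 1.30, edgeR quasi-likelihood adjusted p = 0.910), -0.48 without control replicate 1 and -3.89 without control replicate 2, where it passed (adjusted p = 0.00541) in a fit that called 43.8% of all genes. It was -1.70 with the trend in GC content and transcript length removed.

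With a tumor, Foxp3 stood at 20.1 and 28.8 FPKM in SRC-3KO and 18.4 and 14.7 FPKM in control. The groups did not overlap, but SRC-3KO replicate 1 lay close to control replicate 1. The change on the log2(FPKM + 1) scale was 0.52 (SE 0.25, limma adjusted p = 0.363). It was 0.27 without SRC-3KO replicate 2 and 0.29 after removal of the GC and length trend.

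Flicr, named after its values were seen, was the higher in SRC-3KO in each state, with no overlap. The no-tumor libraries had 119 and 229 counts in SRC-3KO, or 4.32 and 8.05 CPM, against 47 and 17 counts, or 1.87 and 0.649 CPM, for the controls. With a tumor it stood at 3.21 and 3.21 FPKM against 1.62 and 1.71 FPKM. Neither difference passed: the log2 fold change was 2.29 (SE 1.23, edgeR adjusted p = 0.910) and 0.66 (SE 0.23, limma adjusted p = 0.265). Reads in the 853 shared bases may count for either gene. The level of Foxp3 per length was 3.82 and 0.991 times that of Flicr in the no-tumor SRC-3KO libraries and 96.8 and 24.8 times in the controls. With a tumor the ratios were 6.27 and 8.98 against 11.3 and 8.64, which overlap.

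**Figure D1:**
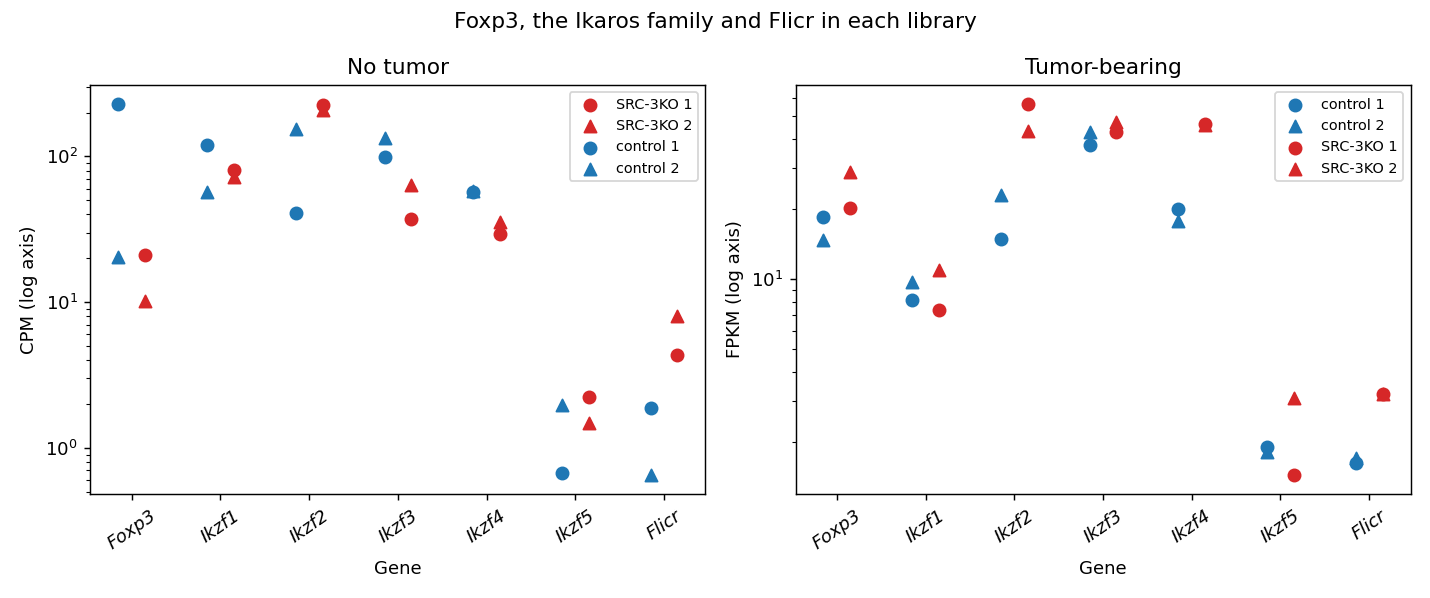
Levels of Foxp3, the 5 Ikaros family genes and Flicr in each library, in CPM without a tumor (left) and FPKM with a tumor (right), both on log axes. Blue is control and red SRC-3KO, circles are replicate 1 and triangles replicate 2. Foxp3 of no-tumor control replicate 1 stands at 231 CPM above the other 3 libraries, and tumor Ikzf2 and Ikzf4 separate by group.

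Of the 6 members, 0 were called in either state by the main tests. The same tests called 0% of 14860 genes without a tumor (edgeR) and 0.109% of 12859 with one (limma; 0.0156% higher and 0.0933% lower). At an unadjusted p under 0.05 there were 0 members without a tumor, where 3.18% of genes (472) passed, 0.882% higher and 2.29% lower. With a tumor there were 2, Ikzf2 and Ikzf4, both higher, where 16.5% of genes passed with 10.4% higher and 6.07% lower. DESeq2 and limma-voom also called 0 members without a tumor, and over all genes they called 87 and 0.

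Ikzf2, which encodes Helios, was higher in SRC-3KO in both states, without overlap. The no-tumor values were 225 and 209 CPM for SRC-3KO and 40.9 and 155 CPM for control. The WT library was the low one, and control replicate 2 lay nearer to the SRC-3KO libraries than to it. The change was 1.14 (SE 0.94, edgeR adjusted p = 0.910), 0.38 without control replicate 1 and 2.39 without control replicate 2, where it passed (adjusted p = 0.00249), again with 43.8% of all genes called.

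With a tumor Ikzf2 stood at 56.6 and 43.0 FPKM in SRC-3KO and 14.8 and 22.9 FPKM in control, means of 49.8 ± 9.65 and 18.9 ± 5.69 (SD, n = 2). The group means differed 2.64-fold, and the lower SRC-3KO library lay well above the higher control. The change was 1.37 (SE 0.28, limma adjusted p = 0.156), and 284th by p among the genes tested. It passed without control replicate 2, at 1.67 (adjusted p = 0.0284), in a fit that called 20.1% of all genes. Removal of the GC and length trend gave 1.01.

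Ikzf4, which encodes Eos, pointed opposite ways in the 2 states. Its no-tumor values were 29.5 and 35.7 CPM for SRC-3KO and 56.7 and 58.0 CPM for control. The groups did not overlap, and the controls, which differ in name, lay within 1.02-fold of each other. The change was -0.81 (SE 0.71, edgeR adjusted p = 0.910), and -0.49 after removal of the GC and length trend.

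With a tumor Ikzf4 stood at 46.5 and 45.6 FPKM in SRC-3KO and 20.04 and 17.7 FPKM in control, means of 46.0 ± 0.627 and 18.9 ± 1.64 (SD, n = 2). The means differed 2.44-fold. The change was 1.24 (SE 0.18, limma adjusted p = 0.121), 74th by p among the genes tested, so that 0.568% of genes had a smaller p. It passed without control replicate 1, at 1.33 (adjusted p = 0.0195), where 3.68% of genes were called, and without control replicate 2, at 1.16 (adjusted p = 0.0284), where 20.1% were. It was 0.95 after removal of the GC and length trend. The difference between the states was not tested, since the tables are in different units and were made separately.

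In the tumor libraries, higher Ikzf2 and Ikzf4 in SRC-3KO went with a higher sum of the 8 Treg markers, none of them a member (3164 and 2987 against 2590 and 1999 FPKM) and with B and plasma cell markers that were lower in SRC-3KO. Scaled to the 6 T cell markers, an alternative added after the data were seen, the changes were 1.39 for Ikzf2 and 1.26 for Ikzf4. Without control replicate 2, which holds the myeloid transcripts, they were 1.67 and 1.16. The part of B lineage cells in these differences was not tested.

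**Figure D2:**
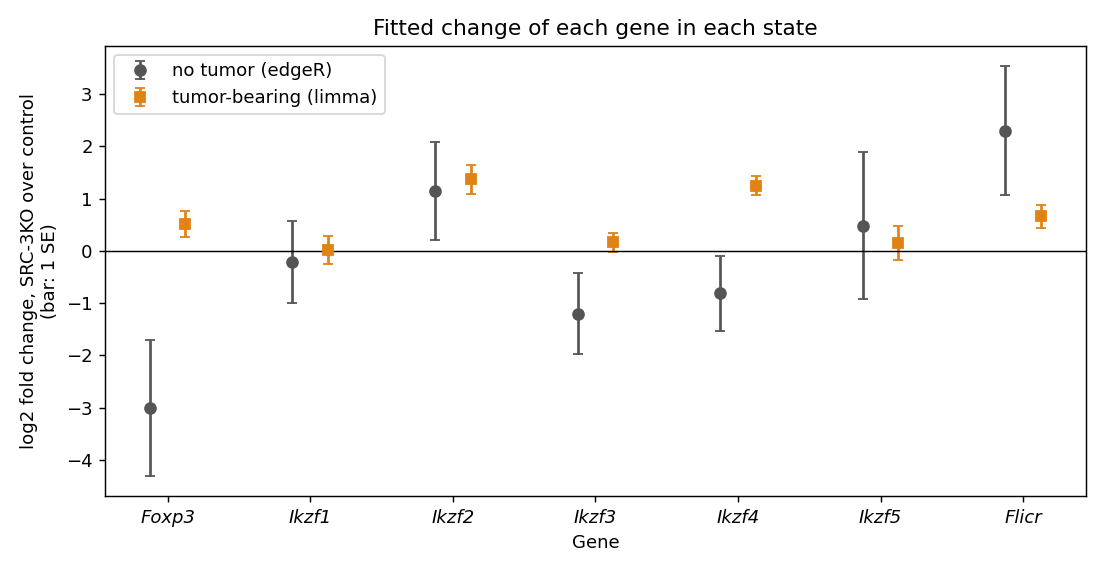
Fitted log2 fold change of SRC-3KO over control for each gene, with bars of 1 SE. Grey circles are the no-tumor libraries (edgeR on counts) and orange squares the tumor libraries (limma on log2(FPKM + 1)). Ikzf2 lies above 0 in both states (1.14 and 1.37), and Ikzf4 lies below 0 without a tumor (-0.81) and above it with one (1.24).

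Ikzf3, which encodes Aiolos, was the lower in SRC-3KO without a tumor, at 37.4 and 63.6 CPM against 98.9 and 134 CPM. The change was -1.20 (SE 0.78, edgeR adjusted p = 0.910). With a tumor it was almost level, at 42.7 and 47.0 FPKM in SRC-3KO against 37.5 and 42.6 FPKM in control. These groups do not overlap, though SRC-3KO replicate 1 and control replicate 2 lie at 42.7 and 42.6 FPKM, and the change was 0.16 (SE 0.18, limma adjusted p = 0.671). Removal of the GC and length trend turned it to -0.03. B cells also express Ikzf3, and their markers were higher in both tumor controls (1724 and 2377 against 274 and 253 FPKM); their part in this value was not tested.

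Ikzf1, which encodes Ikaros, overlapped between the groups in both states. Its no-tumor values were 80.2 and 72.2 CPM for SRC-3KO and 120 and 56.6 CPM for control, so the SRC-3KO libraries lay between the controls. The change was -0.22 (SE 0.79, edgeR adjusted p = 0.948), and 0.33 without control replicate 1. With a tumor it stood at 7.36 and 10.98 FPKM in SRC-3KO and 8.17 and 9.72 FPKM in control, a change of 0.01 (SE 0.26, limma adjusted p = 0.983). That sign turned under several settings, to -0.22 after removal of the GC and length trend, -0.10 without control replicate 1 and -0.25 without SRC-3KO replicate 2.

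Ikzf5, which encodes Pegasus, was the lowest member in every library. The no-tumor libraries had 62 and 42 counts in SRC-3KO and 17 and 52 in control, with 95% Poisson intervals of 47.5 to 79.5, 30.3 to 56.8, 9.90 to 27.2 and 38.8 to 68.2. The low one is the WT library. The change was 0.49 (SE 1.41, edgeR adjusted p = 0.937), and -0.19 without control replicate 1. With a tumor it stood at 1.44 and 3.10 FPKM in SRC-3KO and 1.90 and 1.81 FPKM in control, a change of 0.15 (SE 0.32, limma adjusted p = 0.828), and -0.22 without SRC-3KO replicate 2. Pstk, which overlaps most of its exons, gave 66.8 and 37.3 CPM for SRC-3KO and 21.6 and 36.1 CPM for control without a tumor, and 6.80 and 9.12 FPKM against 12.9 and 8.01 FPKM with one, above Ikzf5 in every library.

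Groups did not overlap for 3 of 6 members without a tumor, Ikzf2 higher and Ikzf3 and Ikzf4 lower, where 40.6% of genes did not, 23.8% higher and 16.9% lower. With a tumor they did not for 4 of 6, Foxp3, Ikzf2, Ikzf3 and Ikzf4, all higher, where 52.4% of genes did not 27.5% being higher and 24.9% lower in SRC-3KO. The median change of the 6 members was -0.52 without a tumor and 0.34 with one, beside -0.02 in both states over all genes tested.

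Levels of different members can be compared only per length. In the tumor controls the order was Ikzf3 first (37.5 and 42.6 FPKM), then Ikzf4, Foxp3 and Ikzf2, which ran from 14.7 to 22.9 FPKM and overlapped one another, then Ikzf1 and Ikzf5. In tumor SRC-3KO, Ikzf2, Ikzf4 and Ikzf3 shared the top, from 42.7 to 56.6 FPKM with overlapping ranges, above Foxp3, Ikzf1 and Ikzf5. Both SRC-3KO libraries thus held more Ikzf2 and Ikzf4 than Foxp3. So did control replicate 2, and control replicate 1 held more Ikzf4 but less Ikzf2 than Foxp3.

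The summed FPKM of the 5 Ikaros family genes was 82.5 and 94.7 in the tumor controls and 155 and 149.6 in tumor SRC-3KO. Ikzf3 held 45.5% and 44.95% of it in the controls against 27.6% and 31.4% with SRC-3KO. Ikzf2 held 18.0% and 24.2% against 36.6% and 28.7%, and Ikzf4 24.3% and 18.7% against 30.1% and 30.5%. Ikzf1 held 9.90% and 10.3% against 4.76% and 7.34%. Within each library, the Ikzf4 to Ikzf3 ratio was 0.534 and 0.416 for the controls and 1.09 and 0.970 for SRC-3KO, and these ratios do not change with the scaling of a library.

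Without a tumor, with CPM divided by exon length, the summed level was nearly even, at 45.2 and 48.5 for the controls and 42.8 and 44.0 for SRC-3KO. Ikzf2 made up 7.78% of it in the WT library, 27.6% in control replicate 2 and 45.3% and 40.9% in SRC-3KO. Ikzf3 made up 24.99% and 31.5% of the controls against 9.97% and 16.5% of SRC-3KO, and Ikzf4 20.9% and 19.95% against 11.5% and 13.6%. Ikzf1 was the largest share in the WT library, at 46.1%, against 20.2% to 32.4% in the other 3. The shares are descriptions and were not tested.

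**Figure D3:**
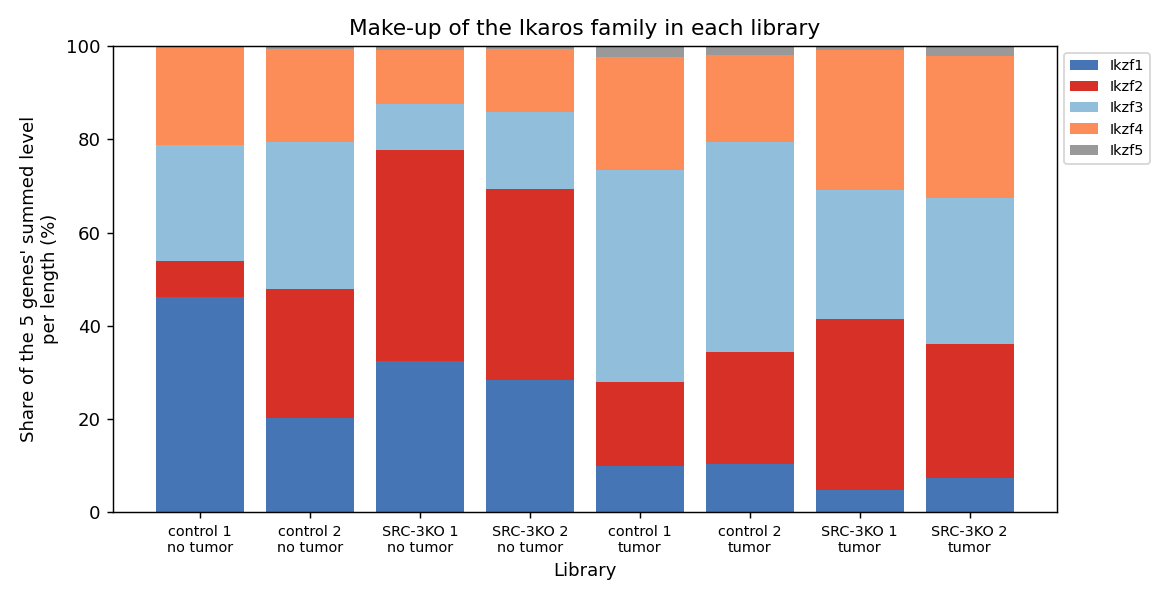
Share of each Ikaros family gene in the summed level per length of the 5 genes, by library (bars stack to 100%). No-tumor bars use CPM per exon length and tumor bars FPKM, so only bars of the same state compare. Ikzf2 (red) takes 7.78% in the no-tumor control 1 and 45.3% and 40.9% in no-tumor SRC-3KO.

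Set against Foxp3 in the same library, Ikzf2 per length stood at 0.0698 times Foxp3 in the WT library, 2.98 times in control replicate 2 and 4.21 and 8.07 times in SRC-3KO without a tumor. With a tumor the ratios were 0.805 and 1.55 for the controls and 2.82 and 1.49 for SRC-3KO, which overlap. The Ikzf4 to Foxp3 ratio was 1.09 and 1.20 in the tumor controls and 2.31 and 1.58 in tumor SRC-3KO. Without a tumor it was 0.187 in the WT library, within 1.07 to 2.67 in the other 3. The WT library was thus the only no-tumor library with more Foxp3 than Ikzf2 or Ikzf4 per length.

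Genes of a like pattern were sought among 9160 genes tested in both states, by the root mean square difference of log2 values centred within each table, over 8 libraries. Closest to Foxp3 were Kmt5c, a histone methyltransferase (0.17), the lipid transfer gene Stard10 (0.20) and Lmnb1, lamin B1 (0.24), where the median gene lay at 1.16. Closest to Ikzf2 were Rhoh (0.25), St8sia4 (0.26) and Ranbp2 (0.27), with a median of 1.05. Closest to Ikzf4 were Sgsm2 (0.15), Arhgap39 (0.16) and Cd83 (0.18), and to Ikzf3 Dpp7 (0.12), Atpaf1 (0.14) and Mfsd4a (0.16), with medians of 0.78 for both. Ikzf1 was nearest to Nadk (0.10), Kif5b (0.10) and Rufy1 (0.10), and Ikzf5 to Asb13 (0.15), Amd2 (0.17) and Fam133b (0.17). Within the family, Ikzf3 and Ikzf4 were the nearest pair, at 0.45, and Foxp3 and Ikzf2 the farthest, at 1.90. The spread of Ikzf3 and Ikzf4 about their own means was 0.49 and 0.53, so that pair is only slightly closer than a flat gene. The WT library had the highest Foxp3 and the lowest Ikzf2 without a tumor (231 and 40.9 CPM). The values within a table share its scaling.

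Genes that induce Foxp3 or bind DNA with it stood mostly higher in tumor SRC-3KO. Of 26 tested, 0 were called by limma, and 10 were higher and 0 lower at an unadjusted p under 0.05, beside 10.4% of all genes higher and 6.07% lower. The median was 0.50, and 0.21 after removal of the GC and length trend. Nfatc2, a calcium-activated factor that binds with Foxp3, stood at 20.4 and 18.8 FPKM in SRC-3KO and 4.80 and 7.99998 FPKM in control (1.51, SE 0.27). Stat5a, which carries the IL-2 signal to Foxp3, stood at 61.5 and 81.9 against 34.8 and 31.3 FPKM (1.08, SE 0.22), and the histone methyltransferase Kmt2d at 2.95 and 3.66 against 0.365 and 0.618 FPKM (1.53, SE 0.25). Kmt2d reached 1 FPKM in SRC-3KO only, so it was tested through the group where it is high. Removal of the trend gave 1.0001 for Nfatc2 and 0.67 for Kmt2d. Without a tumor, 0 of 27 were called by edgeR, DESeq2 or limma-voom. At an unadjusted p under 0.05, 1 was lower, beside 2.29% of all genes. That median was -1.23, with 0.16 without control replicate 1 and -0.53 after removal of the GC and length trend. Without control replicate 2 it was -2.12, and 22 of 28 genes were called lower and 1 higher, where 43.8% of all genes were called. Uhrf1, which maintains DNA methylation, stood at 11.2 and 31.1 CPM against 274 and 46.7 CPM, Foxo3 at 5.48 and 8.19 against 47.1 and 13.6 CPM, and Satb1 at 78.5 and 66.99 against 330 and 176 CPM.

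Genes that Foxp3 is known to hold high gave 0 calls of 19 tested in each state by the main tests. With a tumor 8 were higher and 1 lower at an unadjusted p under 0.05, beside 10.4% and 6.07% of all genes. The median was 0.53, and 0.27 after removal of the GC and length trend. Itgae, the integrin chain CD103, had a change of 1.36 (SE 0.20), Ctla4, an inhibitory receptor, 0.84 (SE 0.22) and Swap70 -0.88 (SE 0.18). Without a tumor the groups did not overlap for 13 as higher and 2 as lower, beside 23.8% and 16.9% of all genes, and 0 had an unadjusted p under 0.05 by edgeR, with 0 called by DESeq2 or limma-voom. The median was 0.68, with 0.37 without control replicate 1, 0.31 scaled to T cell markers and 0.90 without control replicate 2. Nt5e, the ectoenzyme CD73, gave 36.7 and 18.5 CPM with SRC-3KO against 3.62 and 9.19 CPM. Fgl2 stood at 5.81 and 4.47 against 1.27 and 0 CPM. Ebi3, a subunit of IL-35, was high in the WT library, at 113 CPM, against 11.3 to 13.9 CPM in the other 3. Il2ra, Ctla4, Tnfrsf18, Icos, Nt5e, Gpr83 and Izumo1r are also in the Treg marker list, which has only Il2rb besides. The Treg marker sum and this list are therefore not separate observations.

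Genes that Foxp3 is known to hold low gave 0 calls of 15 without a tumor by edgeR, DESeq2 or limma-voom. Their median was -1.19, with -0.27 without control replicate 1 and -1.498 without control replicate 2. At an unadjusted p under 0.05, 2 were lower, beside 2.29% of all genes. These were Il2, at 3.30 and 3.41 against 6.48 and 49.2 CPM, and the phosphodiesterase Pde3b, at 1.09 and 2.25 against 21.6 and 5.26 CPM. The change of Il2 was -3.05, and -0.97 without control replicate 2. With a tumor 0 of 13 were called and 3 were lower at an unadjusted p under 0.05, beside 6.07% of all genes (median -0.06). Il17a stood at 0.342 and 0.0254 FPKM against 3.17 and 8.70 FPKM, Igfbp4 at 1.9999 and 1.54 against 4.58 and 4.08 FPKM, and Pde3b at 0.277 and 0.439 against 1.08 and 2.21 FPKM. Pde3b thus stood lower in both SRC-3KO groups without overlap. With a tumor, however, Il17a and Pde3b reached 1 FPKM in the controls only. They were tested through the group where they are high, so their place among the lower genes was largely set by the filter.

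The NuRD, Sin3 and CtBP corepressors, through which Ikaros family factors silence genes, gave 0 calls of 17 in each state by the main tests. With a tumor their median was 0.02, with 2 higher and 1 lower at an unadjusted p under 0.05, beside 10.4% and 6.07% of all genes. Chd4, the NuRD helicase, stood at 12.4 and 16.8 FPKM in SRC-3KO against 5.75 and 6.76 FPKM (1.09, SE 0.24), Sin3a at 6.74 and 6.83 against 2.90 and 4.83 FPKM, and the histone-binding Rbbp4 at 46.4 and 46.5 against 70.2 and 66.8 FPKM (-0.55, SE 0.17). Removal of the trend gave 0.66 for Chd4. Without a tumor the median was -1.43, with 0.13 without control replicate 1 and -0.39 after removal of the GC and length trend, and 0 genes had an unadjusted p under 0.05 or were called by DESeq2 or limma-voom. Without control replicate 2, which leaves the WT library as the only control, it was -2.19. Mta2, Ctbp1 and Rcor1 were high in the WT library, at 146, 294 and 85.5 CPM, against at most 22.7, 49.2 and 22.0 CPM elsewhere.

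Of genes that Ikaros family factors regulate in lymphocytes, 0 of 12 were called without a tumor (edgeR, DESeq2 and limma-voom) and 0 of 8 with one. At an unadjusted p under 0.05, 1 was higher and 1 lower without a tumor (Cd79b and Il2), beside 0.882% and 2.29% of all genes. With a tumor 2 were higher at that level, beside 10.4% of all genes. The repressor Prdm1 stood at 20.6 and 18.3 FPKM against 9.75 and 10.5 FPKM (0.88, SE 0.19) and Stat4 at 36.1 and 33.1 against 22.5 and 22.4 FPKM (0.60, SE 0.18). Cd79b is also a B cell receptor chain.

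The cereblon ubiquitin ligase is the complex that thalidomide-like drugs turn against Ikaros family proteins. Of its 5 genes, 0 were called in each state, by limma with a tumor and by edgeR, DESeq2 and limma-voom without one. Ddb1, its adaptor, was the gene with an unadjusted p under 0.05, with a tumor, where 10.4% of all genes were higher at that level. It stood at 126 and 150.1 FPKM against 77.7 and 86.3 FPKM (0.74, SE 0.20). Crbn, the substrate receptor, gave 66.6 and 67.6 CPM for SRC-3KO and 2.34 and 22.1 CPM for control without a tumor (2.46, SE 1.17, edgeR adjusted p = 0.910). Leaving out control replicate 1 gave 1.4997, and leaving out control replicate 2 gave 4.81.

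**Figure D4:**
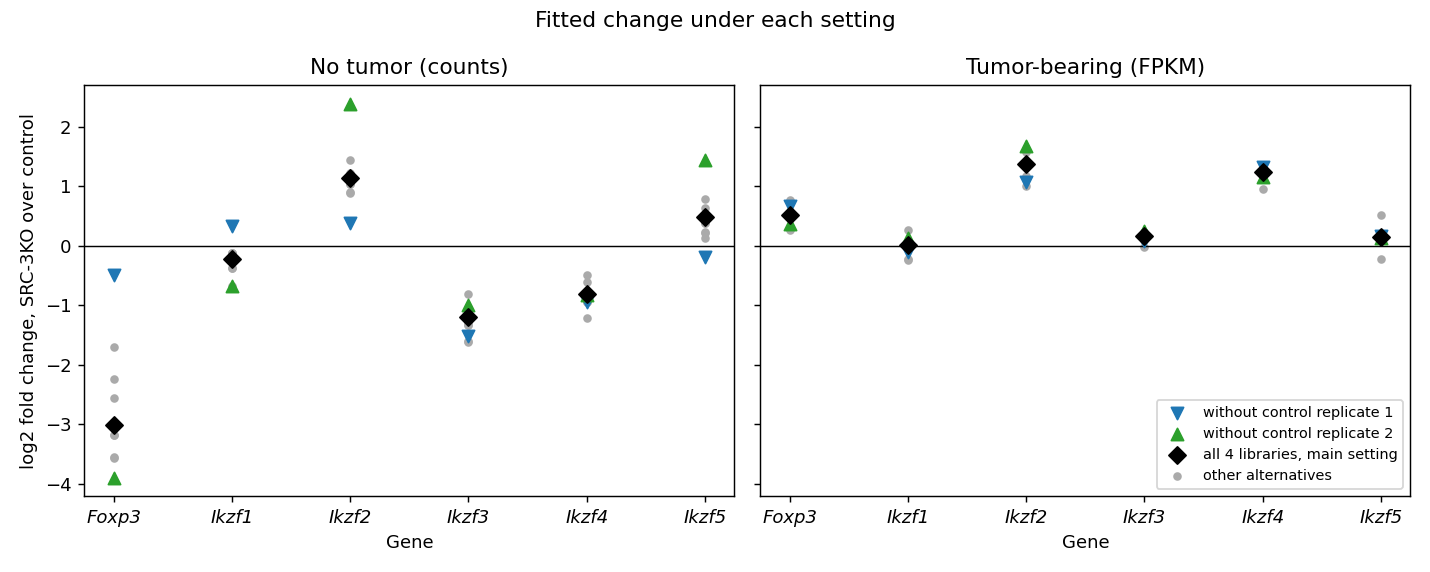
Fitted log2 fold change of SRC-3KO over control for each member under every setting, without a tumor (left) and with one (right). Black diamonds are the main setting, coloured triangles leave out a control library and grey points are the other alternatives. No-tumor Foxp3 spreads from -3.89 to -0.48 and Ikzf2 from 0.38 to 2.39, while tumor Ikzf4 stays between 0.95 and 1.33.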

How the data were processed

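Each of the 2 deposited tables lists 55487 genes. The authors deposited raw read counts for the no-tumor libraries and StringTie FPKM for the tumor libraries, per the file headers. The submitters' processing notes name FastQC, Trim Galore, STAR, featureCounts, edgeR and mm10. The sources used here give no versions, annotation release or strand setting. No library is in both tables, so each state was fitted within its own table.

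Counts were tested with edgeR 4.0.16 (R 4.3.3; filterByExpr, TMM, quasi-likelihood test, common dispersion 0.791) and FPKM with limma 3.58.1 with an intensity trend on log2(FPKM + 1), keeping genes that reach 1 FPKM in 2 or more libraries. On this scale changes of low genes are understated. p-values were adjusted by Benjamini-Hochberg over all genes tested, with a threshold of 0.05. All 6 members passed both filters. GENCODE vM21 gave positions, exon bases, lengths and GC content, and RefSeq the promoters. The members, gene lists and rules were chosen with earlier results of these data known. Named are the members, Ncoa3, up to 3 genes per list and state with the smallest p, and the 3 genes nearest each member in pattern. Flicr and the overlapping genes were added after their values were seen. Both pipelines were tested on simulated data. The simulated counts had a lower dispersion than the 0.791 of these data, and 29.5% of genes with a log2 change of 1.5 were recovered. That test therefore does not show how many changes the no-tumor fit would miss. The simulated FPKM, with the same SD of 0.3 (log2) for every expressed gene, gave 94.5% at the same change. The spread differs between genes in these data, so that test also does not show how many changes the tumor fit would miss. The alternatives tried were limma-voom, DESeq2 1.42.0, another scaling, filter and pseudocount, scaling to T cell markers (added after the data were seen), a replicate block, removal of a GC and length trend, and leaving out each library.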

Additional observations from a re-analysis of the deposited data

Results flagged for a closer look

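Ikzf4 and Ikzf3 were noted because all libraries of a group lay on opposite sides in the 2 states. Without a tumor, both SRC-3KO values of Ikzf4 lay below both control values (log2 fold change -0.81), and with a tumor both lay above (1.24). Ikzf3 was lower without a tumor (-1.20) and higher with one (0.16). The difference between states was not tested for either gene, and the Ikzf3 change with a tumor is smaller than its SE of 0.18.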

How the results depend on the processing

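The count of genes called without a tumor was 0 in the main fit, 87 by DESeq2 and 70 with no filter on low counts, and 0 to 7434 when a library was left out, the highest without control replicate 2 and 1 without control replicate 1. With a tumor it was 14 in the main fit, 7 with a pseudocount of 0.1, 6 with median-of-ratios scaling, 1 with no filter on low values, 30 with at least 5 FPKM and 2 scaled to T cell markers. Leaving out a library gave 31 to 2510, with 459 without control replicate 1 and 2510 without control replicate 2. With a replicate block on the numbers in the tumor library names, 72 genes were called and 0 members. The labels do not say that these numbers pair libraries, and same-numbered libraries deviated together with a correlation of 0.04 across genes, which are not independent replicates. The no-tumor names give no shared numbers. Members called were 0 to 2 when a no-tumor library was left out (Foxp3 and Ikzf2, without control replicate 2) and 0 to 2 when a tumor library was (Ikzf4 without either control, Ikzf2 without control replicate 2). Where an arm is left with 1 library, it is assumed to vary like the other arm. The direction of Foxp3, Ikzf2 and Ikzf4 was the same under all 10 alternatives without a tumor and all 11 with one. Ikzf1 turned to 0.33 without control replicate 1 (no tumor), and with a tumor to -0.22 with the GC and length trend removed, -0.10 without control replicate 1 and -0.25 without SRC-3KO replicate 2. Ikzf5 turned to -0.19 without control replicate 1 (no tumor) and -0.22 without SRC-3KO replicate 2 (tumor), and Ikzf3 to -0.029 with the trend removed (tumor). Ebi3 turned to 0.066 without control replicate 1 (no tumor), and with a tumor Ppp1r3f turned to -0.12 with the trend removed and Ncoa3 to 0.19 without SRC-3KO replicate 2. With each library left out in turn, no-tumor Ikzf1 ran from -0.68 to 0.33, Ikzf5 from -0.19 to 1.44 and Ebi3 from -3.17 to 0.066, and tumor Ikzf1 from -0.25 to 0.27, Ikzf5 from -0.22 to 0.52 and Ncoa3 from -0.56 to 0.19. The causes were not tested. List medians moved by more than the spread between replicates in 37 of 126 alternative values. The limma-voom and no-filter fits centred all genes at 0.24 and -0.76 (log2) without a tumor, beside -0.02 in the main fit. At 17 to 62 counts, no-tumor Ikzf5 is the member that depth limits most.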
